A study of Danio rerio with 2 samples.

Results

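The *cabp5b*-high inner ear hair cells (IEHCs) are 151 cell barcodes of a zebrafish single-cell RNA sequencing experiment. Of these, 65 came from the control library (genotype label Wild-type) and 86 from the *hsd17b7* mutant library (genotype label hsd17b7-KO). The barcodes were chosen by measured counts. A barcode was kept when it held at least 500 detected genes and at most 20% of its unique molecular identifiers (UMIs, each standing for 1 captured transcript) from genes with the mt- prefix. A kept barcode passed the IEHC gate with at least 3 UMIs of *myo6b*, an unconventional myosin of all hair cells (HCs), and at least 2 UMIs of *lhfpl5a*, a mechanotransduction (MET) subunit of inner ear HCs. Members also had 0 UMIs of *lhfpl5b*, the copy used by lateral line HCs, 0 UMIs of *atoh1a*, the transcription factor of HC precursors, at least 5 UMIs of *cabp5b* and over 2 times as many *cabp5b* as *s100s* UMIs. Of 29389 barcodes in all, 25707 were kept, 1369 passed the gate and 424 of these had neither *lhfpl5b* nor *atoh1a*. The members were set against the other 1218 gated barcodes (662 control and 556 mutant), against the mirror class of 213 *s100s*-high barcodes (130 and 83) and against 205 *cabp5b*-high barcodes that held *atoh1a* (105 and 100).

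The study asked what loss of *hsd17b7*, an enzyme of cholesterol synthesis, does to HCs. Larvae of the *Tg(Brn3c:mGFP)* reporter line, in which a *Brn3c* (*pou4f3*) promoter drives membrane-bound GFP, were dissociated with trypsin at 4 days post fertilization (dpf), and mGFP-positive cells were sorted with gates against debris and doublets. A single 10x Genomics 3′ library was made from control larvae and a single library from *hsd17b7* mutant larvae, whose CRISPR/Cas9 deletion shifts the reading frame and gives a premature stop. Both groups carried the reporter and had the same age, and the number of larvae behind each library is not given in the sources used here. Since each genotype was sequenced as a lone library, genotypes could not be tested against each other, no p-value is given, and the members' differences from other barcodes are descriptions. All intervals are 95% intervals of counting error alone, exact Poisson or conditional binomial for counts and exact Clopper-Pearson for shares. Genotype, library and Cell Ranger version (7.1.0 for the control, 9.0.1 for the mutant) cannot be told apart.

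HCs of the inner ear turn the deflection of an actin-filled stereocilia bundle into a current through channels built from TMC proteins with TMIE, LHFPL5 and CIB subunits, gated by tip links of cadherin 23 and protocadherin 15. The current opens voltage-gated calcium channels at ribbon synapses, where otoferlin serves as the calcium sensor of vesicle release. Small EF-hand proteins, among them the CABP family, calmodulins, S100 proteins and parvalbumins, buffer or sense calcium in these cells, and different HC types are known for different sets of them.

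The defining HC genes were present in the members. *s100a1*, an EF-hand gene of HCs that the rule did not use, had UMIs in 65 of 65 control members (median 15 UMIs) and 86 of 86 mutant members (median 29.5 UMIs). It had UMIs in 1.83% and 2.25% of the kept barcodes without *myo6b*, whose median depth was 6978 and 5521 UMIs against 13750 and 11230 UMIs in the members. The mGFP reporter had medians of 12 and 14 UMIs per member, and the EGFP feature had 0 UMIs. *hsd17b7* itself was detected in 58 of 65 control and 77 of 86 mutant members, with a median of 3 UMIs in both, at 254 CPM (its UMIs per 1000000 UMIs of the summed cells) and 261 CPM. It was found in 3.88% and 6.48% of kept barcodes without *myo6b*. A frameshift allele need not lower its transcript, so *hsd17b7* does not check the labels, and control and mutant below follow the genotype labels.

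The libraries held 180590990 (control) and 81920586 (mutant) UMIs in 19270 and 10119 barcodes. They share 49 barcode sequences, none of which is a member in both and 1 of which is a mutant member. The members' depth ranged from 6866 to 35258 UMIs in the control and from 6252 to 45629 UMIs in the mutant library. Globin genes of erythrocytes took over 1% of UMIs in 9 control members, up to 27.8%, and in 0 mutant members. A further 3 members, 1 control and 2 mutant, held over 1% of UMIs from skin (2.09%) or hepatocyte markers (16.8% and 5.57%). They are left out of the mutant to control ratios over the members as a whole, but not of those within subsets of the members. The 24 transcripts that the files name by the mitochondrial genome's accession, without the mt- prefix, took 8.81% of the control and 2.28% of the mutant members' UMIs. With these counted as mitochondrial, 4 control and 2 mutant members would exceed the 20% limit and be left out.

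Most members lay away from the limits of the rule, though 31 of 65 control and 58 of 86 mutant members also held *s100s*. *cabp5b* ranged from 7 to 161 UMIs per control member (median 73) and from 25 to 337 UMIs per mutant member (median 134.5). *s100s* was at 0 in 34 control and 28 mutant members. Of the 424 barcodes without *lhfpl5b* and *atoh1a*, only 39 control and 21 mutant barcodes belonged to neither class. Just inside the limits, 2 control members held 5 to 9 *cabp5b* UMIs, and 8 control and 7 mutant members had over 2 but at most 4 times as many *cabp5b* as *s100s* UMIs, the closest with 154 against 65 UMIs in the control and 134 against 65 UMIs in the mutant library. Just outside, the closest barcodes held 113 *cabp5b* against 68 *s100s* UMIs and 217 against 120 UMIs, and the highest *cabp5b* count under the minimum was 4 UMIs. Because the rule cut on these genes, their levels are no finding.

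**Figure D1:**
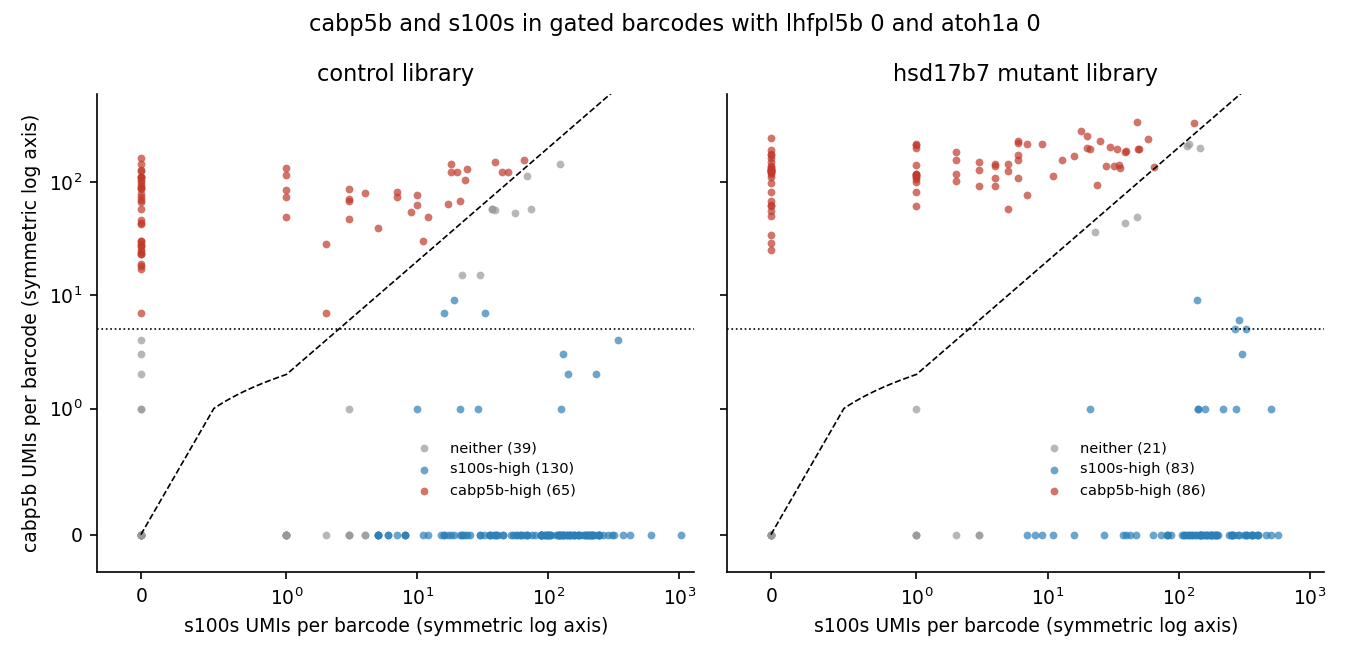
UMIs of *s100s* (x axis) and *cabp5b* (y axis) in each gated barcode without *lhfpl5b* and *atoh1a*, on symmetric log axes, control library on the left and mutant library on the right. Points are barcodes coloured by class, the dotted line marks 5 *cabp5b* UMIs and the dashed line *cabp5b* at 2 times *s100s*. The 65 and 86 members lie above both lines, 34 and 28 of them at 0 *s100s* UMIs, and few barcodes lie near the dashed line.

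Among gated barcodes, members were 8.94% in the control library (6.97 to 11.3%) and 13.4% in the mutant library (10.9 to 16.3%). Among gated barcodes without *lhfpl5b* and *atoh1a* the shares were 27.8% (22.1 to 34.0%) and 45.3% (38.1 to 52.6%). The order did not hold when every barcode was thinned to 4000 UMIs before the rule was applied: the share was then 15.15% for the control and 12.9% for the mutant library. Counting *cabp5b*-high barcodes with and without *atoh1a* together gave 23.4% (20.4 to 26.6%) and 29.0% (25.5 to 32.7%). *atoh1a* was found in 61.8% of the control and 53.8% of the mutant *cabp5b*-high barcodes, against 64.7% and 70.8% of the *s100s*-high ones. The median depth was 13750 and 11230 UMIs in the members, 15590 and 12660 UMIs in the *cabp5b*-high barcodes with *atoh1a* and 16180 and 16970 UMIs in the *s100s*-high class, and its part in these shares was not tested.

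Compared with the *s100s*-high class, the genes that differed in the members included calcium-binding proteins, MET genes, channels and transcription factors. A gene was compared when the 2 classes together held at least 100 UMIs in each library, and counted when it was at least 2-fold different in the same direction in both. Of 3291 genes compared, 187 (5.68%) were higher in the members and 81 (2.46%) lower, and the median log2 ratio of all genes was 0.11 for the control and 0.15 for the mutant library. The share of genes is a description, since the same counts defined the classes. The genes with the largest ratios were nearly absent from the *s100s*-high class. *prox1a*, a homeobox transcription factor, was at 125 CPM in control and 212 CPM across mutant members against 2.63 and 2.88 CPM. *tbx1*, a T-box factor needed for ear development in mice, was at 136 and 338 CPM against 3.07 and 1.44 CPM. *odf3l2b*, of the outer dense fibre 3-like family, was at 323 and 430 CPM against 7.01 and 2.88 CPM. Of these genes, *odf3l2b* had UMIs in 62 of 65 and 83 of 86 members, *tbx1* in 51 and 76, and *prox1a* in 48 and 77, whereas among kept barcodes without *myo6b* the shares were 0.656% and 0.476%, 0.731% and 1.16%, and 4.80% and 7.498%. *prox1a* was also found in 31.4% and 61.8% of barcodes with at least 10 UMIs of the hepatocyte gene *fabp10a*, whose median depth was 23360 and 23340 UMIs.

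Calcium-binding genes parted in both directions. Of 16 calcium buffer and sensor genes compared with the *s100s*-high class, 5 were higher in the members (*cabp5b* of the rule, *calm1a*, *calm1b*, *calm3a* and *calm3b*) and 4 lower (*s100s* of the rule, *s100t*, *pvalb9* and *cabp2b*). *calm1b*, a calmodulin gene, was at 3162 CPM in control and 6911 CPM across mutant members against 873 and 1213 CPM, log2 ratios of 1.86 (1.78 to 1.94) and 2.51 (2.43 to 2.59). Calmodulin copies encode the same protein and could share reads, so the split between *calm1a* and *calm1b* is uncertain. *s100t*, an S100 gene, was at 985 and 484 CPM against 11350 and 22130 CPM. *pvalb9*, a parvalbumin that buffers calcium, was at 1927 and 6560 CPM against 27900 and 64270 CPM, and its neighbour *pvalb3* (adjacent in RefSeq's GRCz12tu annotation) had 0 UMIs in all 151 members against 45.5 and 80.6 CPM. *s100t* had UMIs in 33.6% and 33.2% of the kept barcodes without *myo6b*, and *pvalb9* in 12.7% and 24.6% of them. In the control library, globin-dominated barcodes, which should lack these genes, held *s100t* in 35.55% and *pvalb9* in 13.6%, so shares of this size are read as background. *cabp2b*, a relative of *cabp5b*, was at 419 and 552 CPM against 1398 and 2482 CPM. The members were thus low for *s100t* and *pvalb9*, which stood at high levels in the other class.

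Among MET genes, *TMC1*, the pore-forming channel subunit that the files write in capitals, was at 263 and 338 CPM in the members against 35.9 and 43.9 CPM in the *s100s*-high class, log2 ratios of 2.87 (2.51 to 3.25) and 2.95 (2.55 to 3.36). *TMC1* was uneven among the members. In the subset defined further below by *adam11* alone (37 of 65 and 60 of 86 members), it was at 1.66 and 1.37 CPM. These levels, which that definition sets, lie under those of the *s100s*-high class. *ush1c*, the scaffold harmonin, was at 409 and 359 CPM against 169 and 129 CPM. *loxhd1b*, whose mouse counterpart is needed for MET in mature HCs, was at 4.14 and 1.92 CPM against 91.9 and 156 CPM, from 4 and 2 UMIs in the members. These were the genes counted among 14 MET genes compared, 2 higher and 1 lower. *tmc2a*, another TMC channel gene of these cells, was at 660 and 1150 CPM against 502 and 853 CPM, and *cib2* was at 209 and 212 CPM against 239 and 294 CPM. Outside the compared genes, *cib3*, a calcium-binding MET subunit, had 45 and 78 UMIs in the members (46.6 and 74.97 CPM) against 4.38 and 4.32 CPM.

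Bundle genes included a pair of paralogues that went opposite ways. *myo15aa*, a myosin that carries cargo to stereocilia tips, was at 218 and 437 CPM in the members against 70.05 and 124 CPM, whereas its copy *myo15ab* was at 40.4 and 37.5 CPM against 142 and 149 CPM. *espnlb*, an espin-like actin bundler, was at 119 and 352 CPM against 35.02 and 9.36 CPM. *clic5a*, which in mice stabilizes the base of stereocilia, was at 110 and 163 CPM against 19.7 and 16.6 CPM. Of 22 bundle genes compared, 4 were higher (*myo15aa*, *espnlb*, *clic5a* and *eps8l2*) and 2 lower (*myo15ab* and *triobpa*). Of 42 motile cilium genes, which also serve the kinocilium, 7 were higher and 0 lower, with medians of 0.82 and 1.01 on the log2 scale. *iqca1*, an axonemal protein gene, led them at 176 and 137 CPM against 3.50 and 1.44 CPM. *kncn*, kinocilin, went the other way at 27.97 and 174 CPM against 323 and 790 CPM.

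Of 15 synapse genes compared, 2 were higher in the members (*otofa* and *cacna1db*) and 0 lower, and of 19 ion channel and pump genes 3 were higher (*ano2b*, *kcnma1a* and *kcnab1a*) and 3 lower (*KCNB2*, *kcnn1b* and *kcnab2a*). *otofa*, an otoferlin gene, was at 703 and 1587 CPM in the members against 222 and 215.2 CPM, log2 ratios of 1.66 (1.496 to 1.83) and 2.88 (2.70 to 3.07). In the *adam11* subset of the members *otofa* was at 86.3 and 496 CPM, under the *s100s*-high class in the control library and over it in the mutant library. Its copy *otofb* was close in the members and the *s100s*-high class, at 1611 and 2351 CPM against 1733 and 2834 CPM. *cacna1db*, a subunit gene of the synaptic calcium channel, was at 80.8 and 70.17 CPM against 35.9 and 33.8 CPM. *ano2b*, a calcium-activated chloride channel, was at 1357 and 1765 CPM against 259 and 135 CPM. *kcnma1a*, the BK potassium channel of HCs, was at 1566 and 1071 CPM against 666 and 514 CPM. *KCNB2*, a voltage-gated potassium channel gene, was nearly missing from the members with 9 and 5 UMIs (9.32 and 4.81 CPM against 1081 and 534 CPM). The calcium channel *cacna1ia* (6.22 and 1.92 CPM against 131 and 150 CPM) and the kainate receptor *GRIK2* (4.14 and 2.88 CPM against 159 and 164 CPM) showed the same order.

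Of 34 transcription factors compared with the *s100s*-high class, 7 were higher in the members (*tbx1*, *prox1a*, *meis1b*, *foxj1a*, *irx2a*, *skor1b* and *rxraa*) and 1 lower (*nr2f1a*). *meis1b* was at 273 and 395 CPM against 66.6 and 112 CPM, and *foxj1a*, the regulator of motile cilium genes, at 620 and 632 CPM against 265 and 179 CPM. *nr2f1a*, a nuclear receptor, was at 4.14 and 5.77 CPM against 47.3 and 125 CPM. *otx1*, a homeobox gene that shapes the semicircular canals in mice, had too few UMIs to be compared but stood at 44.6 and 61.5 CPM against 0.876 and 0.720 CPM. Genes in no list but among those with high ratios, named after their values were seen, were the neurotrophin receptor *ntrk3a* at 369 and 181 CPM against 28.02 and 15.8 CPM, the growth factor *fgf10a* at 147 and 167 CPM against 20.6 and 20.2 CPM, and the EGF receptor ligand *hbegfa* at 287 and 279 CPM against 35.02 and 25.9 CPM.

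**Figure D2:**
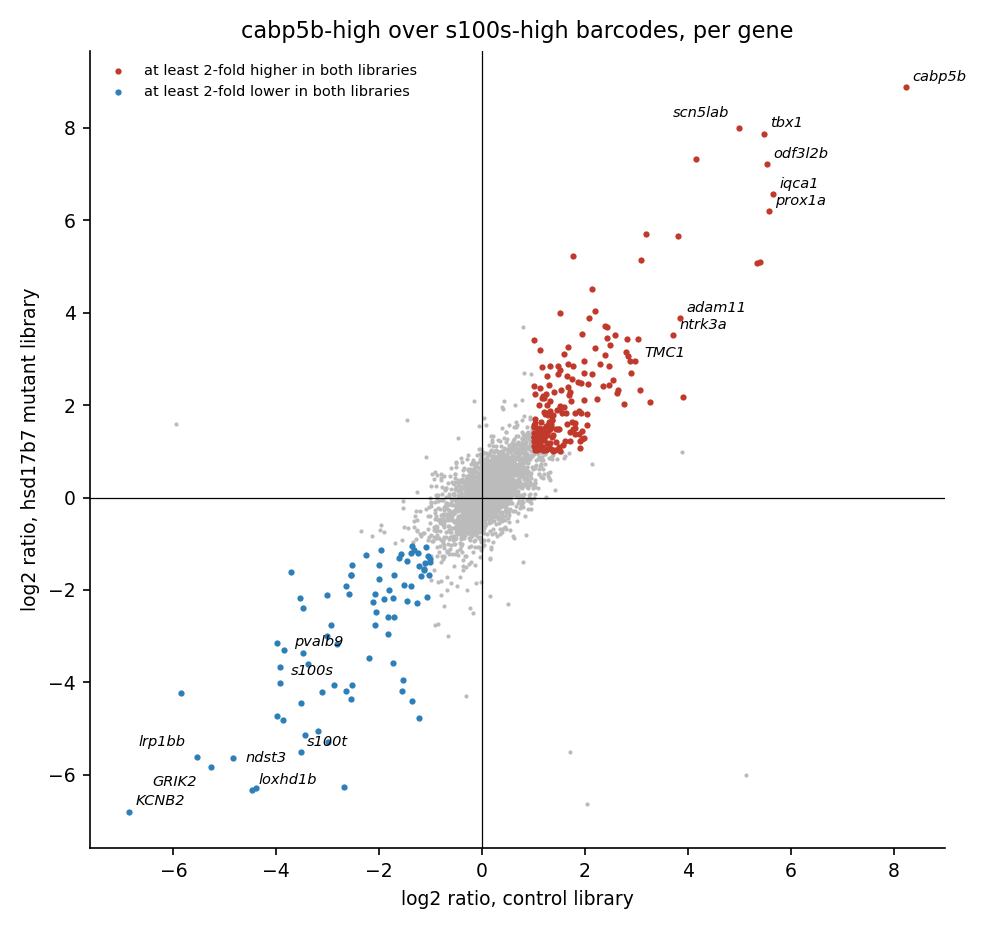
Log2 ratio of CPM in the members over CPM in *s100s*-high barcodes for each of the 3291 genes compared, control library on the x axis and mutant library on the y axis. Red points are the 187 genes at least 2-fold higher in both libraries, blue points the 81 genes at least 2-fold lower, and the labelled genes include *prox1a* and *tbx1* at the upper right and *KCNB2* at the lower left.

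Against all other gated barcodes, which are mostly *atoh1a*-positive, 185 of 8214 genes (2.25%) were at least 2-fold higher in the members in both libraries and 300 (3.65%) at least 2-fold lower. The split between directions moved with the scale, from 38.1% higher of all those counted to 26.7% under the trimmed mean of M values (136 higher, 374 lower), which shifted log2 ratios by -0.11 (control) and -0.16 (mutant). *adam11*, a membrane protein of the ADAM family, was at 455 and 648 CPM in the members against 60.02 and 74.6 CPM in the others. *scn5lab*, a voltage-gated sodium channel, was at 112 and 184.5 CPM against 16.01 and 10.7 CPM. *kcnab2b* and *KCNIP4*, which encode accessory subunits of potassium channels, were at 82.9 and 106 CPM against 13.2 and 21.1 CPM and at 125 and 178 CPM against 20.7 and 36.2 CPM. The defensin gene *defbl1* led the ranking by ratio but was found in only 2 control and 4 mutant members, and 67.3% and 97.1% of its UMIs came from 1 barcode in each library.

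The lower genes included those of Notch signalling, which keeps neighbouring cells from the HC fate, and markers of supporting cells. The rule required 0 *atoh1a* UMIs in members, whereas 73.9% and 81.3% of the other gated barcodes held it. The part of this rule in the lower genes was not tested. Of 22 Notch pathway genes compared, 6 were lower (*dla*, *dld*, *her4.1*, *her4.2*, *her15.1* and *mfng*) and 0 higher, with medians of -0.82 and -1.17 on the log2 scale against 0.022 and 0.026 for all genes. *dla*, a Delta ligand, had 2 UMIs in the control and 2 UMIs in the mutant members. Of 88 transcription factors, 24 were lower and 7 higher, and *emx2* and *pou3f3b* had at most 1 UMI in either library. Of 15 supporting cell markers, 10 were lower and 0 higher, with medians of -1.67 and -2.17. The median share of UMIs from all 16 markers was 0.0274% and 0.0184% in members and 0.0260% and 0.0178% in the *s100s*-high class. It was 0.0569% and 0.0516% in the other gated barcodes, so low medians were shared with the *s100s*-high class. *stm*, an otolith matrix gene of supporting cells, was at 60.1 and 38.5 CPM against 672 and 750 CPM, and 51.7% and 40% of its UMIs in the members came from 1 barcode in each library. HC identity genes were close in both groups, with medians of 0.079 and 0.078 over 13 genes, and 2 of these, *s100a1* and *otofa*, were counted as higher.

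Of 74 motile cilium genes compared, 6 were higher in the members (*foxj1a*, *iqca1*, *tekt3*, *stk33*, *morn3* and *dnah3*) and 0 lower, with medians of 0.73 (control) and 0.59 (mutant). *foxj1a* was at 620 and 632 CPM against 259 and 273 CPM. *xirp2a*, an actin-binding protein that in mice maintains stereocilia, and *clic5a* were the 2 of 28 bundle genes counted as higher and *lmo7a* the 1 counted as lower, with *xirp2a* at 209 and 533 CPM against 103 and 168 CPM. Of 18 MET genes, 0 were higher and 1 (*loxhd1b*) lower, and of 17 cholesterol synthesis genes 0 were counted in either direction. Ribosomal protein genes had medians of -0.62 and -1.19 over 88 genes and nuclear oxidative phosphorylation genes 0.16 and 0.34 over 84 genes. The members' mitochondrial share of UMIs was 2.01% and 3.18% (medians) against 1.65% and 1.77% in the others, and whether it takes part in these list medians was not tested.

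The *cabp5b*-high barcodes with *atoh1a* were much closer to the members, with 42 of 3336 genes (1.26%) at least 2-fold higher in the members and 16 (0.48%) lower in both libraries. *prox1a* (99.0 and 218 CPM with *atoh1a*), *tbx1* (113 and 280 CPM) and *odf3l2b* (234 and 383 CPM) were also present there. *tekt3*, a tektin of ciliary microtubules, was at 109 and 468 CPM in the members against 22.8 and 86.5 CPM, log2 ratios of 2.26 (1.73 to 2.80) and 2.44 (2.14 to 2.74). Potassium channel genes were among the genes higher in the members: *kcnd1* was at 96.3 and 237 CPM against 15.9 and 65.2 CPM, and *kcnh7* at 85.0 and 152 CPM against 25.4 and 39.6 CPM. The parvalbumin *pvalb8* was at 490 and 2620 CPM against 227 and 909 CPM, and *rims2b*, a scaffold of the release site, at 75.6 and 110 CPM against 27.5 and 38.1 CPM. *adam11* was at 455 and 648 CPM against 162 and 240 CPM.

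The genes lower in the members than in their *atoh1a*-positive counterparts included matrix and supporting cell genes. *stm* was at 439 and 514 CPM with *atoh1a*, and the tectorial and otolith matrix gene *otog* at 40.4 and 21.2 CPM in the members against 223 and 109 CPM. *ngfa*, which encodes nerve growth factor, was at 73.6 and 46.1 CPM against 226 and 160 CPM. Of 5 supporting cell markers compared, 4 were lower and 0 higher. The summed level of all 16 markers was 630 and 329 CPM in the members against 2209 and 1298 CPM with *atoh1a*, where 2 control and 3 mutant barcodes held over 1% of UMIs from them, and their part in these differences was not tested. Ribosomal protein genes had medians of -0.47 and -0.93 over 81 genes, and nuclear oxidative phosphorylation genes 0.25 and 0.30 over 82 genes.

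The members themselves fell into a pair of subsets that hardly shared a barcode. *TMC1* was found in 25 control and 25 mutant members, at up to 31 and 45 UMIs, and *adam11* in 42 and 63 members, at up to 20 and 25 UMIs. With 2 UMIs as the minimum, 24 control and 22 mutant members held *TMC1* alone, 37 and 60 held *adam11* alone, 0 and 1 held both, and 4 and 3 held neither. This pair of genes was picked after the members' values had been seen, so the pattern is a description. At a minimum of 1 UMI, 8 of 151 members held both genes, and with every member thinned to 4000 UMIs 3 did. Without the members whose Scrublet doublet score exceeded 0.25, 43 of 142 members held *TMC1* alone, 91 *adam11* alone and 1 both. *TMC1* had UMIs in 0.724% and 0.999% of kept barcodes without *myo6b*. *adam11* had UMIs in 5.85% and 16.01% of them, and in 24.6% and 27.5% of neurons (kept barcodes with at least 5 *elavl3* UMIs, median depth 7160 and 5742 UMIs), where it reached 7 and 5 UMIs.

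**Figure D3:**
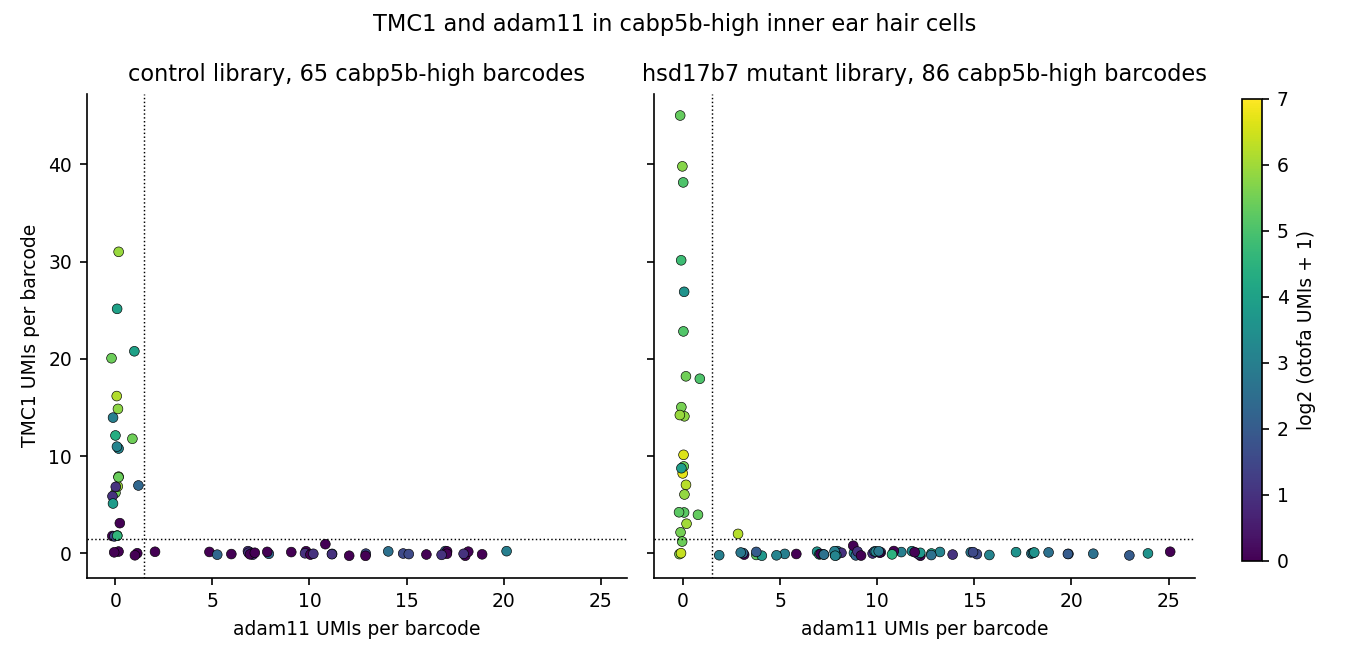
UMIs of *adam11* (x axis) and *TMC1* (y axis) in each member, control library on the left and mutant library on the right, coloured by log2(*otofa* UMIs + 1). Points are shifted at random by up to 0.25 UMI, and dotted lines lie between 1 and 2 UMIs. Members lie along the axes, and *otofa* counts tend to be higher in those with *TMC1*, though the ranges overlap.

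The share with *TMC1* alone was 36.9% in control members (25.3 to 49.8%) and 25.6% in mutant members (16.8 to 36.1%), and those with *adam11* alone 56.9% (44.0 to 69.2%) and 69.8% (58.9 to 79.2%). Among *cabp5b*-high barcodes with *atoh1a* the same pair was again nearly exclusive, with 58 and 53 barcodes holding *TMC1* alone, 35 and 34 *adam11* alone, 1 and 3 both, and 11 and 10 neither. *TMC1* alone was thus the larger subset there in both libraries (55.2% and 53.0%). In the *s100s*-high class 101 of 130 and 62 of 83 barcodes held neither gene. There, 14 and 5 held *TMC1* alone, 15 and 15 *adam11* alone, and 0 and 1 both. With each gene in few barcodes of that class, few would hold both in any case, so these counts do not show exclusion. Outside the members, near exclusion was thus seen in the *cabp5b*-high barcodes with *atoh1a*. It was not particular to *cabp5b*-high barcodes, since those of neither class that held *TMC1* at the same minimum did not hold *adam11* at it. For example, control barcodes of neither class held 16 *adam11* and 0 *TMC1* UMIs or 18 *TMC1* and 0 *adam11* UMIs. Mutant ones held 15 *adam11* and 0 *TMC1* UMIs or 25 *TMC1* and 0 *adam11* UMIs. Many barcodes of neither class held *TMC1* with *otofa* as well, so this pairing was not particular to the members. Among those with 0 *cabp5b* UMIs, control barcodes held 18 *TMC1* and 27 *otofa* UMIs, 13 and 40 UMIs, and 6 and 72 UMIs. Mutant barcodes held 25 and 20 UMIs, and 15 and 61 UMIs. These are examples picked from more such barcodes. *cabp5b* itself was at like levels in the subsets, with medians of 61.5 UMIs (*TMC1*) and 80 UMIs (*adam11*) in the control and 122.5 and 142 UMIs in the mutant library. *s100s* was at most 1 UMI in every *TMC1* cell, while 28 of 37 and 50 of 60 *adam11* cells held it, with medians of 4 and 6 UMIs. The *TMC1* cells were somewhat shallower, with median depths of 12410 and 9442 UMIs against 14620 and 11810 UMIs, and the neuron markers' share of UMIs was 0.0528% and 0.0848% against 0.0959% and 0.119% (medians).

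Of 1202 genes with at least 100 UMIs over both subsets in each library, 33 (2.75%) were at least 2-fold higher in the *TMC1* cells in both libraries and 34 (2.83%) in the *adam11* cells. These include *TMC1* and *adam11*, which define the subsets, and *s100s* of the rule. *otofa* was at 2012 CPM in control and 3863 CPM across mutant *TMC1* cells against 86.3 and 496 CPM in *adam11* cells. Its median was 17 and 42.5 UMIs per *TMC1* cell against 1 and 5 UMIs per *adam11* cell, and the ranges overlapped (0 to 72 and 11 to 104 UMIs against 0 to 7 and 0 to 37 UMIs). *cabp1b*, a further EF-hand relative of *cabp5b*, was at 401 and 367 CPM against 4.98 and 2.73 CPM, from 3 and 2 UMIs in the *adam11* cells. *pvalb9* was at 4406 and 14750 CPM against 768 and 2827 CPM, so the parvalbumin left in the members lay mostly in the *TMC1* cells.

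By list, the split went both ways. Of 16 calcium buffer and sensor genes compared, 2 were higher in the *TMC1* cells (*cabp1b* and *pvalb9*) and 3 in the *adam11* cells (*cabp2b*, *s100t* and *s100s* of the rule). Of 11 MET genes, *TMC1* itself, which defines the subset, was higher and *pcdh15a* lower in the *TMC1* cells. Of 15 bundle genes, *strc* was higher in the *TMC1* cells and *espnlb* and *pls1* in the *adam11* cells, and of 10 ion channel and pump genes 2 were higher in the *TMC1* cells (*kcnab1a* and *kcnd3*) and 0 in the *adam11* cells.

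The genes with values below were named after these had been seen. *pde1a*, a calmodulin-dependent phosphodiesterase, was at 408 and 630 CPM against 26.6 and 6.84 CPM. *kcnd3*, a voltage-gated potassium channel, was at 350 and 512 CPM against 46.5 and 45.1 CPM. The muscarinic receptor *chrm3a* (706 and 419 CPM against 110 and 27.3 CPM) and the protein kinase C gene *prkcbb* (1142 and 641 CPM against 206 and 60.2 CPM) followed the same order. Below the UMI minimum, *cib3* was at 144 and 282 CPM against 0 UMIs in both sets of *adam11* cells, at least 4.86 and 6.10 on the log2 scale when 3 UMIs stand for 0. *tmc2b* was at 135 and 145 CPM against 33.2 and 5.47 CPM, and *slc17a8*, the vesicular glutamate transporter of HCs, at 99.5 and 219 CPM against 8.30 and 24.6 CPM. *tmie* was at 170 and 152 CPM against 56.4 and 65.6 CPM. Other MET genes had the opposite order, with *pcdh15a* at 343 and 7.41 CPM against 899 and 477 CPM and *lhfpl5a* of the rule at 314.5 and 267 CPM against 543 and 637 CPM.

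Genes higher in the *adam11* cells included single members of several families. *ncam2*, an adhesion molecule, was at 345 CPM in control and 435 CPM across mutant *adam11* cells against 9.63 and 11.1 CPM in *TMC1* cells, whereas its relative *ncam1b* was higher in the *TMC1* cells (619 and 341 CPM against 187.5 and 43.7 CPM). *hbegfa* was at 415 and 380 CPM against 32.1 and 26.0 CPM. *scn5lab*, the sodium channel, was at 163 and 262.5 CPM against 25.7 CPM and 0 UMIs, in the mutant library at most -4.56 on the log2 scale. *pls1*, a plastin that bundles actin in stereocilia, was at 168 and 168 CPM against 35.3 and 29.7 CPM, and *espnlb* at 136 and 451 CPM against 64.2 and 111 CPM. *tmc2a* was at 808 and 1326 CPM against 420 and 615 CPM, below the 2-fold limit in the control library. *otofb* was at 1880 and 2830 CPM against 1280 and 1038 CPM. *tbx1* was at 164 and 433 CPM against 67.4 and 119 CPM, while *prox1a* was close, at 116 and 226 CPM against 138 and 211 CPM.

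**Figure D4:**
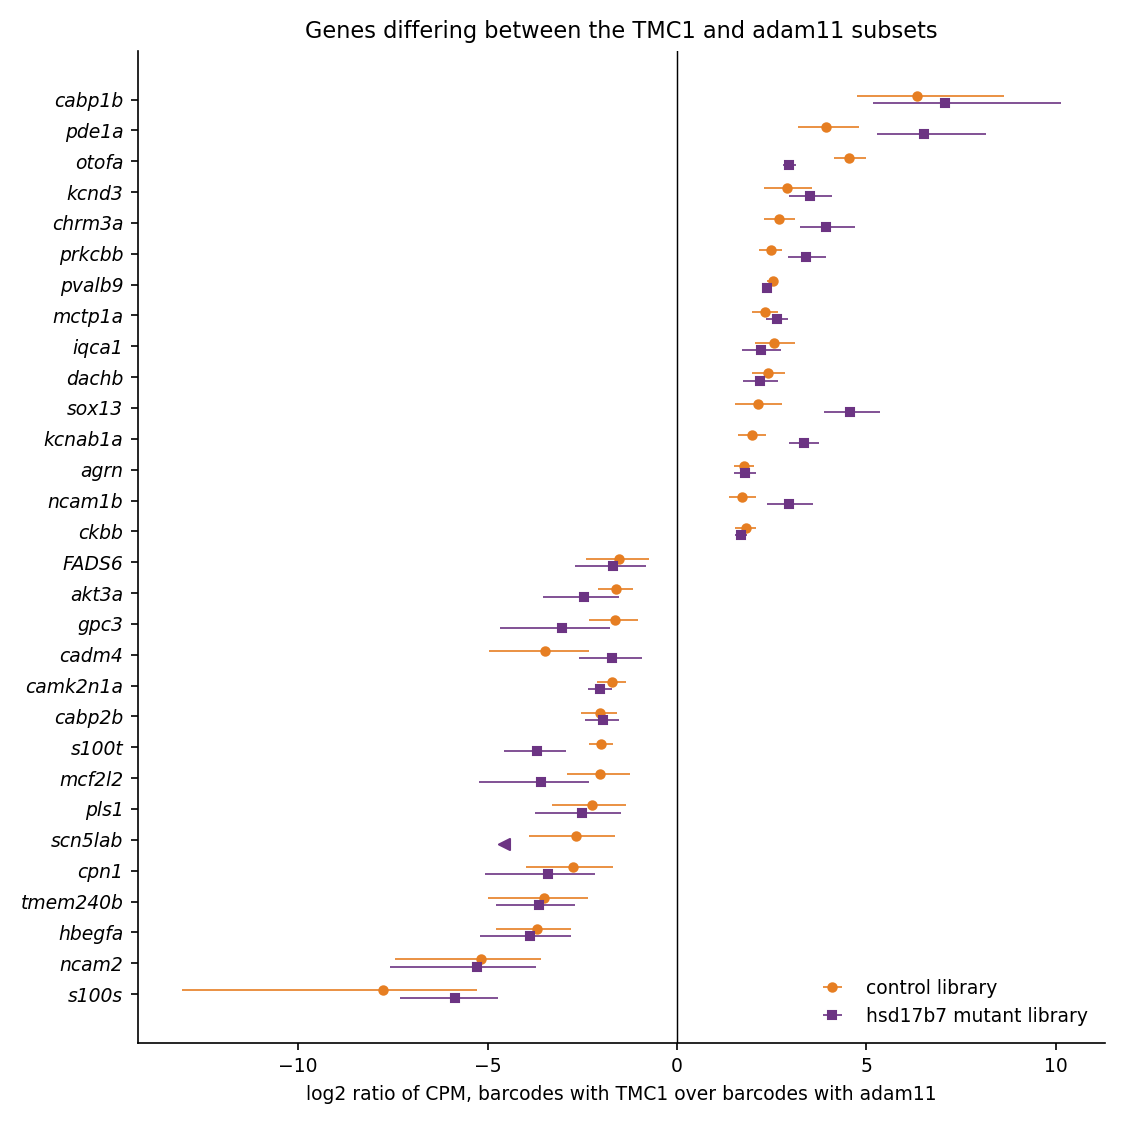
Log2 ratio of CPM in *TMC1* cells over CPM in *adam11* cells for 30 genes, with 95% intervals of counting error, circles for the control and squares for the mutant library. The triangle marks *scn5lab* in the mutant library, an upper bound of -4.56. Points of both libraries lie on the same side of 0 for each gene chosen for its ratio, and *cabp1b* and *otofa* lie far to one side and *ncam2* and *hbegfa* to the other.

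Across single members thinned to 4000 UMIs, the rank correlation of *TMC1* was 0.75 with *otofa* in the control (n = 65 cells) and 0.63 in the mutant library (n = 86 cells), and -0.60 and -0.69 with *adam11*. These are descriptions over cells that share a library and depth. *cabp5b* ran with *calm1b* (0.57 and 0.56) and little with *TMC1* (0.02 and -0.20). The genes that varied most among members by variance over mean included *pvalb9* (42.3 and 45.8, against a median of 1.19 and 1.15 over all genes), with 0 to 122 and 0 to 168 thinned UMIs per member. The heat shock gene *hsp70l* (18.04 and 30.4) and *s100t* (14.4 and 26.0) followed, and *otofa* was at 10.9 and 13.2.

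Between the libraries, the members differed in many genes. Without the 3 members that held skin or hepatocyte markers, 285 of 3107 genes with at least 100 UMIs (9.17%) were at least 2-fold higher in the mutant and 300 (9.66%) at least 2-fold lower, with a median log2 ratio of 0.13 and 57.4% of genes above 0. With these 3 members, 312 of 3238 genes (9.64%) were higher and 315 (9.73%) lower, and the 10 highest ratios included liver and plasma genes such as *apoa1b*, *apoc1* and *fabp10a*, the last with 86.8% of its mutant UMIs from 1 barcode. The 10 lowest ratios included globins such as *hbae3*, with 8885 UMIs in the control and 3 UMIs in the mutant members. The ratios below over the members as a whole leave out the 3 barcodes. The CPM values, and the ratios within the *TMC1* and *adam11* subsets, keep these barcodes. Each value has no replicate.

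Of 14 calcium buffer and sensor genes other than *cabp5b* and *s100s*, which the rule used, 11 had ratios above 0 (78.6%), 5 were at least 2-fold higher in the mutant library and 0 lower, with a median log2 ratio of 0.69. The same 14 genes had medians of 0.51 in the *s100s*-high class, 0.91 in the *cabp5b*-high barcodes with *atoh1a* and 0.75 in all other gated barcodes, so the direction was not particular to the members. *pvalb8* went from 490 to 2620 CPM, a ratio of 2.46 (2.32 to 2.61), and was found in 48 of 65 control and 86 of 86 mutant members. It was found in 8.45% and 22.6% of kept barcodes without *myo6b*. *s100a1* (1.202), *calm1b* (1.14) and *pvalb9* (1.75) were higher as well, and *s100t* was lower (-0.85). Of 20 bundle genes, 14 were above 0 (70%), not far from the share of all genes, with a median of 0.55, and 5 were counted as higher, among them *espnlb* (1.58, 1.27 to 1.89) and *xirp2a* (1.34, 1.104 to 1.58), and 2 as lower (*espnla* and *whrna*). The mGFP reporter had a ratio of 0.76 (0.63 to 0.88).

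MET genes other than *lhfpl5a*, which the rule used, did not share this direction as a list. Their median was -0.036 over 13 genes, 5 of them above 0, 0 at least 2-fold higher and 1 lower. That gene was *pcdh15a*, a tip link cadherin, which went from 784 to 337 CPM (-1.15, -1.34 to -0.96). It was lower in both subsets, with 107 UMIs in the control and 2 UMIs in the mutant *TMC1* cells (-5.53, -8.60 to -3.65) and 542 and 349 UMIs in the *adam11* cells (-0.91, -1.11 to -0.72). The intervals of the ratios do not overlap, but the subsets were picked after values had been seen and the difference between them was not tested over replicates. *otofa* was higher in the mutant library in both subsets, with ratios of 0.94 (0.80 to 1.09) in the *TMC1* and 2.52 (2.101 to 2.97) in the *adam11* cells.

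Of the 6 cholesterol synthesis genes with enough UMIs, 5 were above 0 and 1 was at least 2-fold higher, with a median of 0.56. The same 6 genes had medians of 1.06 in the *s100s*-high class and 1.17 in all other gated barcodes. *msmo1*, which removes methyl groups from sterol intermediates, went from 39.4 to 155 CPM (1.93, 1.41 to 2.48). *fdps*, the farnesyl diphosphate synthase of the pathway, had a ratio of 0.83 (0.37 to 1.31), *cyp51* of 0.74 (0.20 to 1.304) and *hmgcs1*, which feeds the pathway, of 0.38 (0.10 to 0.65). *hsd17b7* had a ratio of 0.053 (-0.21 to 0.31) in the members, against 0.80 in the other gated barcodes.

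**Figure D5:**
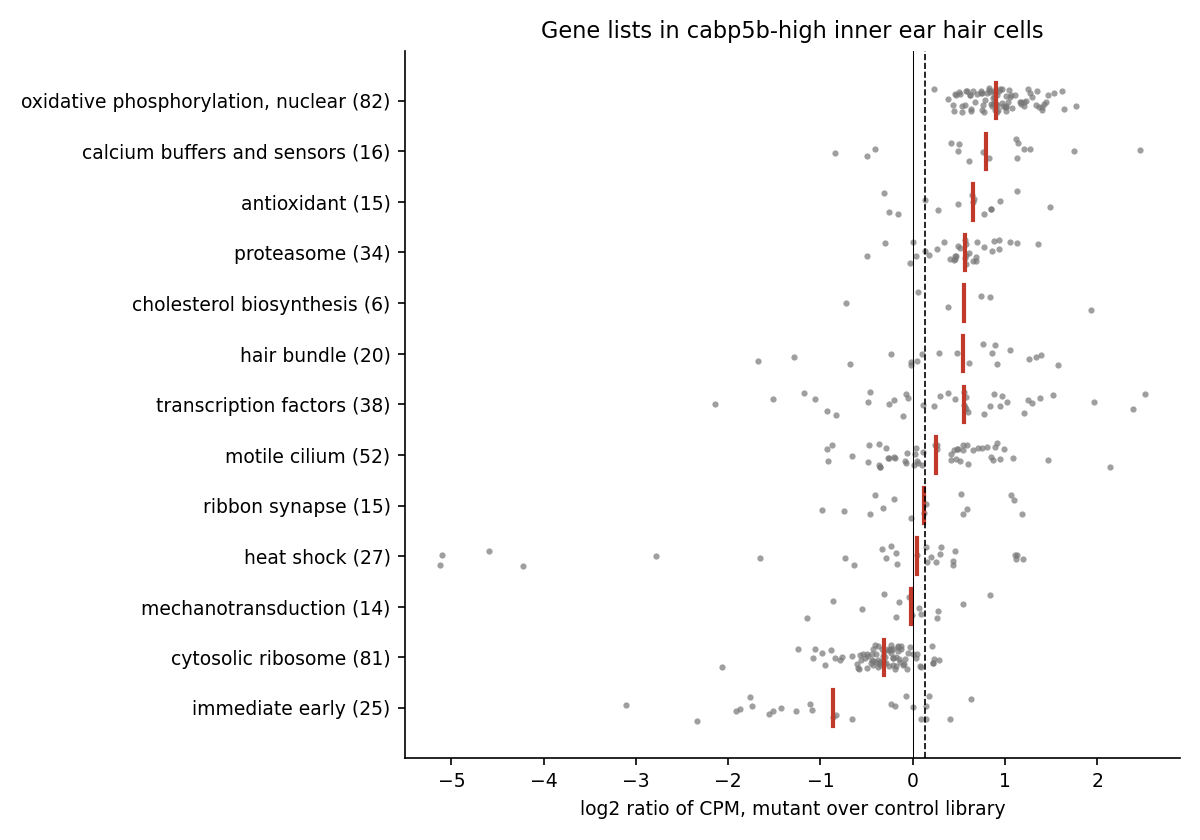
Log2 ratio of mutant over control CPM in the members, without the 3 barcodes that held skin or hepatocyte markers, for each gene of the lists shown. Points are genes, red bars list medians and the dashed line the median of all genes (0.13), and nuclear oxidative phosphorylation genes lie above 0 throughout while most immediate early genes lie below.

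Among the lists with at least 5 genes compared, nuclear oxidative phosphorylation had the highest median, 0.91, with 82 of 82 genes above 0 and 32 at least 2-fold higher. The same list had medians of 0.92 in the *s100s*-high class, 0.90 with *atoh1a* and 0.81 in all other gated barcodes. Its direction was shared by these classes of the same libraries. Ribosomal protein genes had a median of -0.32, with 10 of 81 above 0, in the members, and 0.19, 0.23 and 0.31 in the same classes in the same order. Whether the members differ from the other classes in this was not tested.

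Transcriptional regulators contributed genes in both directions, though the single regulators given here were all higher in the mutant library. *skor1b*, a corepressor, went from 72.5 to 403 CPM (2.51, 2.14 to 2.90). *id2a*, an inhibitor of bHLH factors, went from 106 to 548 CPM (2.39, 2.08 to 2.70). *tbx1* had a ratio of 1.38, *pou4f3* of 1.29 and *gfi1aa*, a zinc finger factor of HCs, of 1.204. Of 38 transcription factors, 25 were above 0 (65.8% against 57.4% of all genes), 9 at least 2-fold higher and 4 lower. Over the 33 of them compared in every class, the median was 0.55 in the members. It was 0.41 in the *s100s*-high class, 0.47 with *atoh1a* and 0.39 in all other gated barcodes, so the direction of the list was not particular to the members. Others of the highest ratios were *ccdc105* (12.4 to 134 CPM, 3.44), the EGF receptor ligand *hbegfb* (30.04 to 260 CPM, 3.14), the calcitonin receptor *calcr* (12.4 to 85.5 CPM, 2.82) and *kncn* (27.97 to 174 CPM, 2.68). *zgc:56628* (3.09) came almost wholly from the *TMC1* cells, with 26 UMIs in the control and 257 UMIs in the mutant library against 1 and 0 UMIs in the *adam11* cells.

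Immediate early and several stress genes were lower in the mutant library. Of 25 immediate early genes, 12 were at least 2-fold lower and 0 higher, with a median of -0.86, and *atf3* (-1.52), *egr1* (-1.91) and *btg2* (-1.26) were among them, whereas *fosab* was at 0.15. The same 25 genes had medians of -0.52 in the *s100s*-high class, -0.99 with *atoh1a* and -0.53 in all other gated barcodes. Their direction was thus not particular to the members. Heat shock genes parted: 4 of 27 were at least 2-fold higher and 6 lower, with a median of 0.042. Of the same 27 genes, 6 were at least 2-fold lower in the *s100s*-high class, 6 with *atoh1a* and 6 in all other gated barcodes, and 0, 0 and 3 were higher. *hsp70l* was higher, with a ratio of 1.12 (1.07 to 1.16), while the collagen chaperone *serpinh1b* went from 247 to 7.69 CPM (-5.11, -6.44 to -4.04), *hspa8b* from 866 to 34.6 CPM (-4.60) and *hspb1* from 1319 to 181 CPM (-2.78). *odc1*, the first enzyme of polyamine synthesis, went from 534 to 67.3 CPM (-3.00, -3.40 to -2.63). *scn1lab*, a sodium channel, went from 142 to 10.6 CPM (-3.71, -4.74 to -2.82). In the other gated barcodes *odc1* stood at 647 and 97.0 CPM and *scn1lab* at 107 and 10.7 CPM, with the same order.

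Taken within each subset, the ratios kept their direction for most of the genes given below, but several lists differed between the subsets. Transcription factors had medians of -0.12 over 16 genes in the *TMC1* cells and 0.63 over 31 genes in the *adam11* cells. Bundle genes were at -0.010 over 11 genes and 0.33 over 19 genes, and ribosomal protein genes at 0.0087 over 78 genes and -0.31 over 80 genes. Immediate early genes were below 0 in both, at -0.32 and -0.78. The 3 barcodes with skin or hepatocyte markers were kept in these ratios. Among these, the mutant barcode with 16.8% hepatocyte markers held 45629 of the 269764 UMIs of the mutant *TMC1* cells. The medians of the subsets also cover unlike sets of genes. The part of either in the differences between the subsets was not tested. Hepatocyte markers had medians of 6.55 over 8 genes in the *TMC1* cells and 3.18 over 5 genes in the *adam11* cells. Of 953 genes compared in the *TMC1* cells, 100 (10.5%) were higher and 121 (12.7%) lower in the mutant library, and of 2177 genes in the *adam11* cells 280 (12.9%) and 198 (9.1%). Nuclear oxidative phosphorylation genes had medians of 0.84 (55 of 55 above 0) and 0.99 (82 of 82). *pvalb8* was at 2.60 and 2.204, *skor1b* at 1.45 and 2.58 and *id2a* at 1.02 and 2.74. *serpinh1b* was at -4.78 and -5.20, *hspb1* at -1.99 and -3.51 and *odc1* at -3.14 and -2.84. *hsd17b7* was at -0.13 and -0.06.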

How the data were processed

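The authors sorted mGFP-positive cells of 4 dpf larvae, made a 10x Genomics 3′ library per genotype and deposited raw UMI counts per gene and barcode for 32059 features, with no normalization. Per the file headers, the matrices came from different Cell Ranger versions (control 7.1.0, mutant 9.0.1), and GRCz11 is the build in the submitters' processing notes. The authors integrated the libraries with Harmony in Seurat, which was not run here. No doublets were removed, and Scrublet scores were used in an alternative. From the deposited counts, UMIs were summed per class and library with Python 3.11.15, numpy 2.4.6, scipy 1.17.1, pandas 2.3.3 and scanpy 1.11.5, divided by the class total (CPM) and compared as log2 ratios with exact intervals. Genes needed 100 UMIs, and 2-fold was the size counted. edgeR 4.0.16 in R 4.3.3 gave the trimmed mean of M values used as an alternative scale. The log2 ratios and their intervals were tried on simulated Poisson counts with known fold changes, drawn without variation between cells.

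The members and the 39 gene lists were chosen with earlier results of these data known. Named genes were the 15 highest and 15 lowest ratios against the other gated barcodes, the 10 highest and 10 lowest between libraries, the 10 most variable genes, and list members past the limit. *TMC1*, *adam11* and others described within the members were added after values had been seen. Symbols that 2 features share (*calm3a*, *her4.2*) were counted by identifier, as separate features.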

Additional observations from a re-analysis of the deposited data

Results flagged for a closer look

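For 2 genes the mutant to control ratio within the members lay at least 2-fold to one side and in another class at least 2-fold to the other, among 2959 genes compared with the *s100s*-high class, 3103 with all other gated barcodes and 3064 with the *cabp5b*-high barcodes that held *atoh1a*. The differences were not tested, since there is 1 library per genotype. *galnt9*, an enzyme that starts O-linked glycans, had a log2 ratio of -1.035 (-1.39 to -0.69) in the members, from 205 control and 105 mutant UMIs, against 1.86 (1.25 to 2.50) in the *s100s*-high class, from 33 and 73 UMIs. *defbl1* had a ratio of -1.466 (-1.81 to -1.13) in the members, from 266 and 101 UMIs, against 1.03 (0.45 to 1.61) in the other gated barcodes, from 44 and 65 UMIs. Of its UMIs in the members, 67.3% and 97.1% came from 1 barcode in each library.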

How the results depend on the processing

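No paired analysis was possible because each genotype has 1 library. The share of members moved from 8.94% to 15.15% in the control library when barcodes were thinned to 4000 UMIs, and to 27.78% and 45.26% (mutant) with gated barcodes without *lhfpl5b* and *atoh1a* as the denominator. The counts of genes higher and lower in the members than in the other gated barcodes (185 and 300) became 98 and 116 at 300 UMIs per gene, 288 and 527 at 30 UMIs, 560 and 713 at 1.5-fold, 78 and 94 after thinning and 153 and 88 against other gated barcodes without *lhfpl5b* and *atoh1a*, and 81 were lower than in the *s100s*-high class. The counts between libraries (312 and 315) became 135 and 97 at 300 UMIs, 766 and 939 at 30 UMIs, 795 and 603 at 1.5-fold, 147 and 69 after thinning (68.1% higher against 49.8%) and 100 and 121 in *TMC1* cells, and 198 were lower in *adam11* cells. With the alternatives added after seeing the data, leaving out the unprefixed mitochondrial transcripts from the scale gave 248 and 366 between libraries (40.4% higher). The ratio of *defbl1* to the other gated barcodes in the mutant library changed sign, to -1.834 without high Scrublet scores and -2.583 at 4 times *s100s*, since its UMIs lie in 1 barcode. Of 1044 list medians under alternatives, 977 stayed close and 67 moved, and of 1107 values of single genes 942 stayed close and 163 moved. A change of sign was counted apart only for main values at least 2-fold in size, and for 0 list medians. Smaller medians that changed sign are among the others. The median of transcription factors between libraries was 0.56 without the 3 barcodes with skin or hepatocyte markers and -0.12 in *TMC1* cells. The totals of 1044 and 1107 include the 1.5-fold limit, under which 81 list medians and 95 single values could not change. Thinning moved 48 of 95 single values. Taking *TMC1* cells alone moved 23 of 33 and *adam11* cells alone 17 of 34. Fewer than 100 members per library limit what could be compared for genes of low level.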

Other observations

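Further genes that differed between the *TMC1* and *adam11* cells, named after their values were seen, included potassium channel genes. *kcnab1a*, an accessory subunit, was at 594 CPM (control) and 949 CPM (mutant) in *TMC1* cells against 151 and 93.0 CPM in *adam11* cells, and *kcnd2* was at 889 and 708 CPM against 312 and 243 CPM. *kcnh7* was the other way, at 9.63 and 14.8 CPM against 123 and 194 CPM. Among transcription factors, *sox13* was at 247 and 586 CPM in *TMC1* cells against 56.4 and 24.6 CPM, and *pax2a*, a paired box gene of the developing ear, at 247 and 293 CPM against 96.3 and 68.4 CPM. *strc*, which encodes stereocilin, a protein of stereocilia links, was at 420 and 667 CPM against 68.0 and 325 CPM. *gpc3*, a cell surface proteoglycan, was at 80.2 and 18.5 CPM in *TMC1* cells against 251 and 152 CPM in *adam11* cells, and *camk2n1a*, an inhibitor of calcium/calmodulin-dependent kinase, at 212 and 363 CPM against 697 and 1478 CPM.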
